A study of Homo sapiens with 1 sample.

Results

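The actomyosin contractile genes examined were ACTA2, ACTC1, MYL9, TPM1, TPM2, TPM4, TAGLN, CNN1, CALD1 and ACTN1, 10 of the 33538 genes in the count table, and all 10 were found by symbol. They were chosen by name, with earlier results of these data known. They were measured in 1 single-cell RNA-seq library of hHAR123 cells (genotype WT), which are H9 human embryonic stem cells that carry the human form of the enhancer HAR123. The cells had been driven towards neural progenitor cells (NPCs) with dorsomorphin, SB431542 and, at first, a ROCK inhibitor, then held in suspension as embryoid bodies and replated on Matrigel. The library is a mixture of 2 clones, taken ahead of rosette picking, and no label in the count table tells the clones apart. With 1 library and no replicate, no difference was tested, and every interval here is an exact 95% interval that covers counting error only.

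Contractile cells pull with bundles of actin filaments and myosin II. Actin forms the filament, tropomyosin lies along it, and myosin II is switched on when its regulatory light chain is phosphorylated, a step that ROCK promotes. Each of these parts is encoded by several paralogous genes, here called isoforms, some of which are used in nearly every cell and others mainly in muscle or in contracting mesenchymal cells. The muscle-type isoforms are classical targets of the serum response factor SRF, whose DNA site is the CArG box, and of its cofactors of the myocardin family. ROCK itself, which was inhibited early in the culture, lies upstream of the same machinery.

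The question was which isoforms differed between cells high in ANXA1, TFPI2 and CTGF and the other cells. ANXA1 encodes an annexin, TFPI2 a secreted protease inhibitor and CTGF a matricellular protein. A cell was called high when these 3 genes together had at least 5 unique molecular identifiers (UMIs) per 10000 UMIs of the cell. Among 13925 kept cells, 1584 were high (11.4%, 10.9 to 11.9%) and 12341 were not. High cells were deeper, with a median of 47217 UMIs against 16910, and they held 24.4% of all UMIs of kept cells. Deeper sampling and more RNA per cell cannot be told apart here. Values are therefore given mainly as CPM (a gene's pooled UMIs per 1000000 pooled UMIs), and a UMI is 1 captured RNA molecule counted from its 3′ end, so that levels were not divided by gene length. By CPM the median gene was 0.792 times as high in high cells as in other cells (-0.34 on the log2 scale), and by UMIs per cell 1.99 times (0.99 on the log2 scale).

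Sequence shows one thing that part of the members share. RefSeq promoter windows on GRCh38.p14, from 250 bases before to 50 after the start site, were at hand for 8 of the 10 members (20 windows), and none was at hand for TAGLN and MYL9. The CArG box was searched on both strands as an exact stretch of 10 letters, CC, then only A or T, then GG. Boxes that depart from it by a letter were not searched, so a window without a match may hold one. Exact matches were found in 3 of these 20 windows, 1 each at ACTC1, TPM4 and ACTN1, against 1.29% of all 35116 windows. They are printed because ACTC1 and TPM4 stand at opposite ends of the range of differences below. Each is given 5′ to 3′ on the strand of its gene, with the box in capitals.
ACTC1 (chr15:34795634-34795673, minus strand): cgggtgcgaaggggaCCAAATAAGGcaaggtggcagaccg
TPM4 (chr19:16067350-16067389, plus strand): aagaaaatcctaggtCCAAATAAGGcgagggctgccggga
ACTN1 (chr14:68977713-68977752, minus strand): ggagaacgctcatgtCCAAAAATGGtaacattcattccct

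The box ends 100 bases before the start site at ACTC1, 164 at TPM4 and 162 at ACTN1, and ACTC1 and TPM4 carry the same letters in it. The TEAD-type motif CATTCC, searched on both strands, was found in 5 of the 20 windows (at ACTA2, ACTC1, CALD1 and ACTN1), against 14.0% of all windows. At ACTN1 it lies among the bases shown after the box. A match describes these letters only.

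All 10 members were higher in the high cells. The ratio of CPM was at least 2-fold for 10 of 10 members and at least 5-fold for 7 of 10, while 7.24% of the 16780 genes with at least 200 UMIs were at least 2-fold higher and 2.48% at least 5-fold higher. None was 2-fold lower, as 21.7% of all genes were. The median ratio of the members was 5.97. Together the 10 genes made up 1.71% of the UMIs of high cells and 0.280% of those of other cells. By UMIs per cell all 10 were again at least 2-fold higher, which 49.5% of all genes were.

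**Figure D1:**
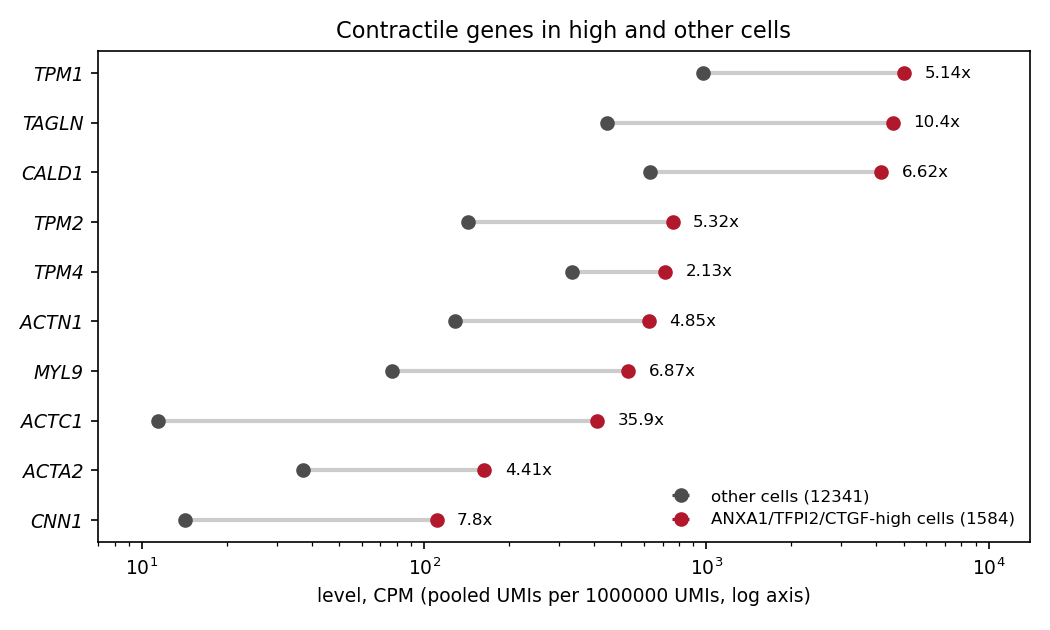
Level of each contractile gene in CPM (log axis) in the 1584 high cells (red) and the 12341 other cells (grey), with exact 95% Poisson bars that are mostly smaller than the points. The number at each red point is the ratio, from 2.13 for TPM4 to 35.9 for ACTC1, and all 10 red points lie to the right of their grey partners.

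ACTC1 (ENSG00000159251, chromosome 15 from 34790107 to 34795589 on GRCh38, minus strand), the actin of heart muscle, differed most. Its level was 409.6 CPM (405 to 414) in high cells and 11.4 CPM in other cells, a ratio of 35.9 (34.5 to 37.3). Of its UMIs in kept cells, 92.04% lay in high cells. The level was very uneven among them. The lowest high cell had 0 CPM, the median high cell 75.9 CPM and the highest 9493 CPM, 27.4% of high cells had no ACTC1 UMI, and the top 158 high cells held 55.9% of the ACTC1 UMIs.

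ACTA2 (ENSG00000107796, chromosome 10 from 88935074 to 88991339, minus strand), the alpha actin of smooth muscle and myofibroblasts, was 164 CPM (161 to 166) in high cells and 37.1 CPM (36.3 to 37.9) in other cells, a ratio of 4.41 (4.29 to 4.53). It too was uneven, with a range from 0 to 2148 CPM over high cells, a median of 83.3 CPM and 37.6% of its UMIs in its top 158 cells. In pooled UMIs ACTC1 made up 71.5% (71.0 to 71.9%) of the pair in high cells and 23.5% (22.8 to 24.3%) in other cells. With every cell thinned to 5000 UMIs ACTC1 was 376 CPM and ACTA2 190.3 CPM in high cells. In the 440 high cells of 20000 to 40000 UMIs, however, ACTA2 was 240.1 CPM and ACTC1 234 CPM, a share of 49.3%. The median over high cells was also higher for ACTA2 than for ACTC1.

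The remaining muscle actins ACTA1 (skeletal) and ACTG2 (enteric smooth muscle) were minor, at 18.4 and 7.87 CPM in high cells and 4.07 and 1.41 CPM in other cells. The 4 muscle actins together were 6.89% (6.83 to 6.95%) of all actin UMIs in high cells and 1.42% (1.40 to 1.45%) in other cells. The cytoplasmic isoforms stayed the bulk of actin in both. ACTB was 3872 CPM against 1897 and ACTG1 4231 against 1846, ratios of 2.04 and 2.29, so the cytoplasmic and the muscle isoforms were both higher in high cells. Actin genes have near-identical coding sequences, and reads that cannot be assigned to 1 of them may be lost.

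Tropomyosins shifted towards TPM1. TPM1 (ENSG00000140416, chromosome 15 from 63042620 to 63071915, plus strand) was the most abundant member in both groups, at 5021 CPM (5005 to 5037) in high cells and 976 CPM (972 to 980.02) in other cells, a ratio of 5.14. TPM2 (ENSG00000198467, chromosome 9 from 35681992 to 35690056, minus strand), the beta tropomyosin of muscle, was 761 against 143 CPM, a ratio of 5.32 (5.25 to 5.39). TPM4 (ENSG00000167460, chromosome 19 from 16067021 to 16103002, plus strand), a tropomyosin of many non-muscle cells, was 714 against 335 CPM and had the smallest ratio of the members, 2.13 (2.11 to 2.15). TPM3, its non-member paralogue, was 456 against 269.8 CPM, a ratio of 1.69.

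Among the 4 tropomyosin genes TPM1 took 72.2% of UMIs in high cells and 56.6% in other cells. TPM2 took 10.9 and 8.29%, TPM4 10.3 and 19.4%, and TPM3 6.56 and 15.6%. TPM1 and TPM2 together made up 83.2% (83.1 to 83.3%) and 64.9% (64.8 to 65.1%). Gene counts do not separate the splice forms of TPM1, which include muscle and non-muscle products, nor those of CALD1.

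MYL9 (ENSG00000101335, chromosome 20 from 36541497 to 36551447, plus strand) encodes the regulatory light chain of smooth muscle and contracting non-muscle cells. It was 529 CPM (524 to 535) in high cells and 77.0 CPM (75.9 to 78.1) in other cells, a ratio of 6.87. Its paralogues MYL12A and MYL12B were 3.22-fold and 2.75-fold higher. MYL9 thus took 35.1% of regulatory light chain UMIs in high cells and 19.1% in other cells. Of the myosin II heavy chains, MYH9 was 3.87-fold higher and MYH10 1.56-fold, and the MYH9 share of the 4 heavy chain genes was 52.2% against 30.1%. The heavy chain of smooth muscle, MYH11, was at 0.925 CPM in high and 2.02 CPM in other cells.

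TAGLN (ENSG00000149591, chromosome 11 from 117199370 to 117207464, plus strand), an actin-binding protein of the calponin family, came second by ratio and, in high cells, by level. It was 4595 CPM (4579.7 to 4610.07) in high cells and 443 CPM (440.5 to 446) in other cells, a ratio of 10.4 (10.3 to 10.4). All but 1 high cell had a TAGLN UMI, and the median high cell was at 4413 CPM. The median other cell had none, yet the highest other cell reached 19433 CPM. Within its family TAGLN2 was higher still by ratio, 15.7-fold (339 against 21.5 CPM), whereas TAGLN3, a neuronal form, was 0.312 times as high (6.63 against 21.3 CPM).

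CNN1 (ENSG00000130176, chromosome 19 from 11538767 to 11550323, plus strand), the calponin of smooth muscle, was 111 CPM (108 to 113) against 14.2 CPM (13.7 to 14.7), a ratio of 7.80. It was the least abundant member in high cells, and 13.6% of these had no CNN1 UMI. Its share of calponin UMIs was 13.0% in high and 2.51% in other cells, while CNN3, at 456 and 414 CPM, remained the main calponin in both with 53.3 and 73.1%. CNN2 was 2.08-fold higher.

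CALD1 (ENSG00000122786, chromosome 7 from 134744252 to 134970729, plus strand) encodes caldesmon, which binds actin and tropomyosin and restrains myosin. It was 4172 CPM (4157 to 4186) against 629.96 CPM (627 to 633), a ratio of 6.62, and it had a UMI in 100% of high cells. ACTN1 (ENSG00000072110, chromosome 14 from 68874128 to 68979440, minus strand), the alpha-actinin that cross-links filaments in stress fibres, was 625 CPM (619 to 631) against 129 CPM (127 to 130.2), a ratio of 4.85. Its non-muscle paralogue ACTN4 was 3.24-fold higher, and the sarcomeric ACTN2 was at 1.82 and 2.07 CPM. ACTN1 made up 61.3% of alpha-actinin UMIs in high cells and 51.0% in other cells.

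**Figure D2:**
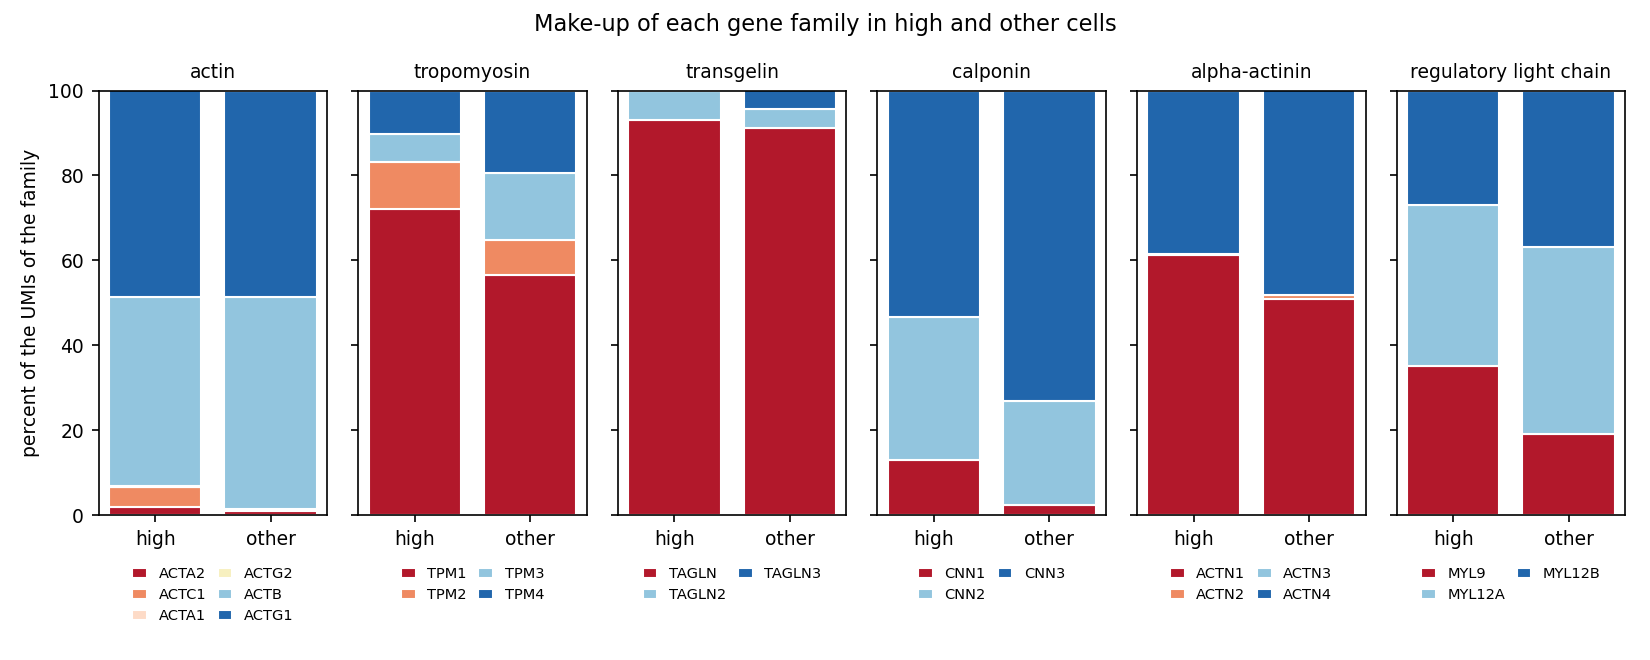
Share of each paralogue, in percent of the UMIs of its family, in high cells (left bar) and other cells (right bar) for 6 families. TPM1 grows from 56.6 to 72.2% of tropomyosin and MYL9 from 19.1 to 35.1% of regulatory light chains from other to high cells, while ACTB and ACTG1 fill most of the actin bar in both.

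The abundance order of the members was alike in both groups at the top, with TPM1, TAGLN and CALD1 as the first 3 in either, and TAGLN and CALD1 in reverse order in other cells. ACTC1 moved from last of 10 in other cells to the eighth place in high cells. All neighbours in the order had intervals that did not overlap in high cells, but such intervals take no account of the spread between cells or cultures.

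With every cell thinned to 5000 UMIs the ratios lay between 2.37 (TPM4) and 47.5 (ACTC1). In cells of 20000 to 40000 UMIs they lay between 1.93 (TPM4) and 17.4 (ACTC1, 16.4 to 18.6). The ACTC1 ratio was also 17.6 with the score limit at 20. With a score of ANXA1 and TFPI2 alone the ratio was 21.4 for ACTC1, 5.64 for TAGLN, 3.99 for CNN1 and 2.28 for ACTA2. Thinned TAGLN UMIs were found in 98.5% of high and 31.3% of other cells, ACTA2 UMIs in 42.8 and 9.61%, ACTC1 UMIs in 44.02 and 2.80%, and CNN1 UMIs in 38.7 and 4.47%. Cluster 8 of the clustering described below, which is led by NEUROD1 and NEUROG1 of young neurons (median 13089 UMIs), was taken for comparison, since young neurons are not contractile cells. Of its 196 thinned cells 16 (8.16%) had a TAGLN UMI, 7 (3.57%) an ACTC1 UMI and 1 (0.510%) a CNN1 UMI. None had an ACTA2 UMI, which allows a share of up to 1.53%. The shares of other cells were above these for TAGLN, ACTA2 and CNN1. Other cells, however, included 296 cells of cluster 4 and 688 of cluster 7, with TAGLN at 3114 and 1580 CPM. In cluster 1, the largest, the thinned shares were 25.6% for TAGLN, 5.98% for ACTA2 and 2.91% for CNN1. For ACTC1 cluster 8 was no lower bound, since ACTC1 UMIs were found in 1.61% of thinned cells of cluster 6, and no background for ACTC1 was set.

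Levels in cells without any UMI of the 3 score genes were not in 1 proportion to those in high cells. They were 1.10% of the level in high cells for ACTC1, 2.97% for TAGLN, 10.2% for CALD1, 11.3% for TPM1 and 40.2% for TPM4. The part of free RNA in these levels was not tested further.

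Members were followed along the score to see where they differ. From cells with a score of 0 to those at 2 to under 4, below the limit, TAGLN went from 137 to 2634 CPM, TPM1 from 569 to 3448 CPM and CALD1 from 425 to 2063 CPM. The 89 cells just below the limit (4 to under 5) and the 72 just above (5 to under 6) had much the same levels, with TAGLN at 3362 and 3344 CPM, ACTA2 at 207 and 213 CPM and ACTC1 at 81.4 and 90.7 CPM. The pooled levels thus showed no step at the limit. Pooled bins cannot tell a gradient from a changing mix of cells. TPM1 was 4171 CPM just below the limit and 5907 CPM at 40 or more.

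**Figure D3:**
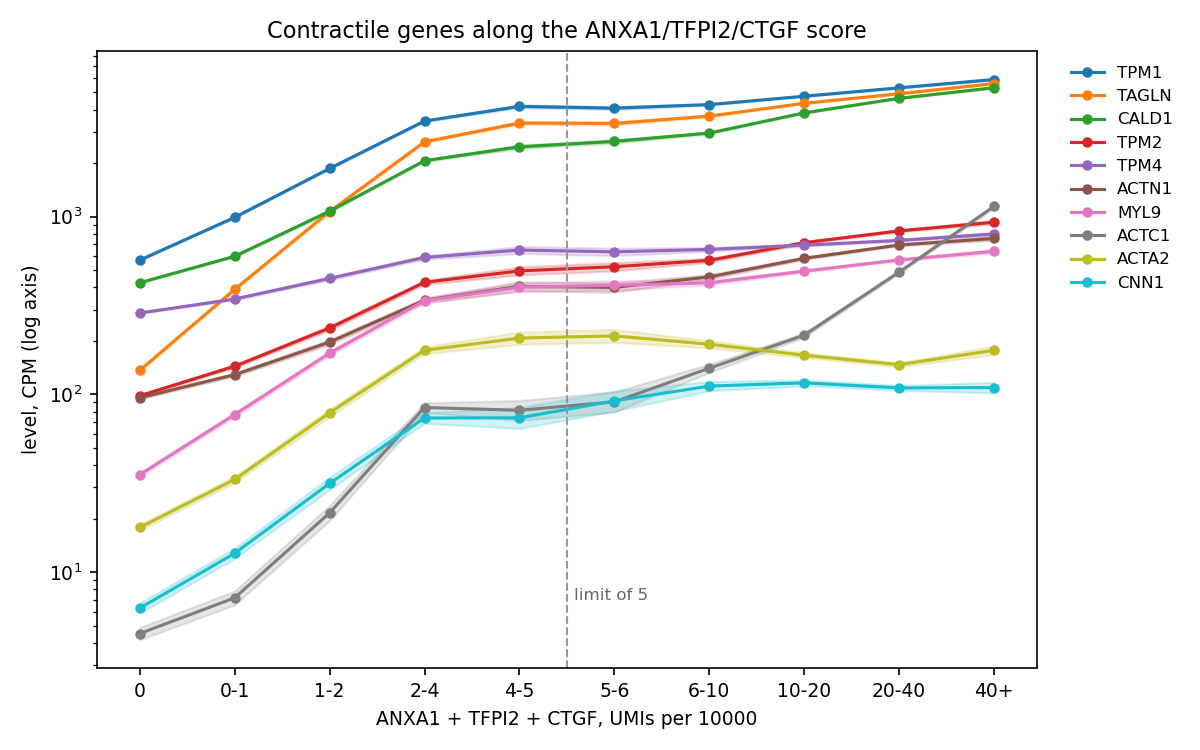
Level of each contractile gene in CPM (log axis) in 10 bins of the summed ANXA1, TFPI2 and CTGF score, with exact 95% Poisson bands; the dashed line marks the limit of 5. Most lines climb steeply up to the bin of 2 to 4 and less steeply after it. Above the limit ACTA2 lies between 147 and 213 CPM, and ACTC1 climbs to 1141 CPM.

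The actin pair parted within the high cells. From 5 to under 6 up to 40 or more, ACTC1 went from 90.7 to 215 CPM (10 to under 20) and on to 487 and 1141 CPM in the last 2 bins. ACTA2 was 213 CPM in the first of these bins, 166 CPM at 10 to under 20, 147 CPM at 20 to under 40 and 177 CPM at 40 or more. The ACTC1 share of the pair was 20.2% at a score of 0, 29.8% at 5 to under 6, 56.5% at 10 to under 20 and 86.6% (85.9 to 87.2%) at 40 or more. Muscle actins together made up 12.8% of actin UMIs in that last bin of 133 cells.

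The 739 high cells at 20 or more were set against the 322 at 5 to under 10, a division chosen after the values were seen. ACTC1 was 4.68-fold higher (4.45 to 4.93), CALD1 1.65-fold, ACTN1 1.58-fold and TPM2 1.52-fold, and these 4 members passed 1.5-fold, as 5.38% of 11737 genes did. ACTA2 was 0.778 times as high (0.742 to 0.816) and CNN1 1.01 times (0.954 to 1.08), so 1 of 10 members was lower, as 66.1% of the genes were. With a score of ANXA1 and TFPI2 alone, ACTC1 was still 2.47-fold and TPM2 1.30-fold higher, but TAGLN (0.871), CALD1 (0.947) and ACTN1 (0.940) were lower in the upper cells, so their gradient within the high cells was not seen without CTGF.

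Depth moved with the score. The upper cells had a median of 53588 UMIs and the lower 36641. By quartile of depth over the high cells, ACTC1 was 231, 315, 398 and 521 CPM from the shallowest to the deepest 396 cells, and ACTA2 was 297, 178, 164 and 116 CPM. In cells of 20000 to 40000 UMIs the ACTC1 ratio of upper to lower cells was 4.64 (4.18 to 5.17), as large as without the restriction, while that of ACTA2 was 1.15 (1.06 to 1.25), in the other direction, and by UMIs per cell it was 1.13. In upper cells of 20000 to 40000 UMIs TPM2 was 1.30-fold higher (1.23 to 1.37), under 1.5-fold, and TAGLN 1.65-fold (1.62 to 1.68), above it. The part of depth in the ACTA2 level was not tested further.

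**Figure D4:**
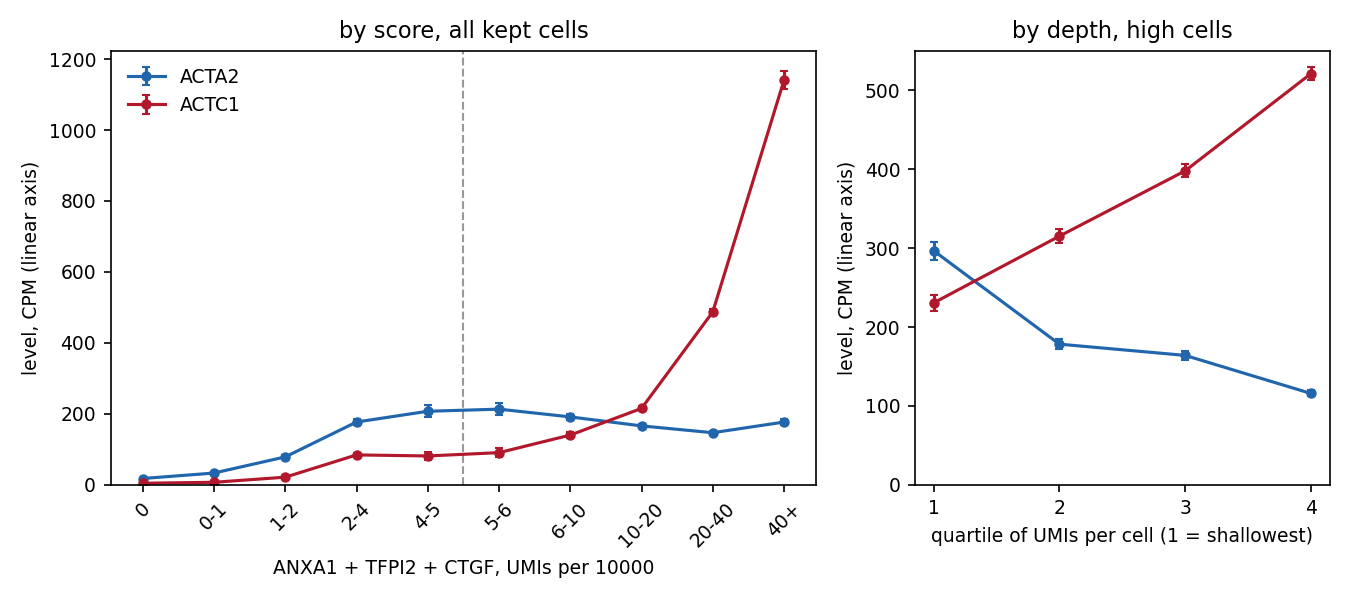
Levels of ACTA2 (blue) and ACTC1 (red) in CPM (linear axes) with exact 95% Poisson bars, by bin of the score over all kept cells (left, dashed line at the limit of 5) and by quartile of UMIs per cell over the high cells (right). ACTC1 passes ACTA2 at the bin of 10 to 20, and from the shallowest to the deepest quartile ACTC1 goes from 231 to 521 CPM and ACTA2 from 297 to 116 CPM.

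The pair was not exclusive. After thinning, 314 of 1581 high cells (19.9%) had UMIs of both, 363 of ACTA2 alone, 382 of ACTC1 alone and 522 of neither. Across these cells the correlation of log(1 + UMIs) was 0.07 for ACTA2 with ACTC1, against 0.66 for TAGLN with TPM1, 0.62 for TAGLN with CALD1 and 0.58 for CALD1 with TPM1. None of the 45 pairs of members was negative, the median was 0.22, and the lowest was CNN1 with TPM2 at 0.01. Cells share 1 library and sparse counts lower such values, so they are a description.

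The genes most like the summed members over the 13897 thinned cells were AC016766.1 (r = 0.73), TMSB4X (0.71), IER3 (0.70), ANKRD1 (0.67), CYTOR (0.65), CTGF (0.65), ACTG1 (0.62), ACTB (0.62), VIM (0.61) and MYL6 (0.59), among 13241 genes. CTGF is part of the score. Within the high cells they were ACTB (0.57), ACTG1 (0.51), NPPB (0.47), ANKRD1 (0.46), AC016766.1 (0.45), CTGF (0.45), IGFBP3 (0.45), EDN1 (0.41), TMSB4X (0.37) and IER3 (0.37). ACTA2 alone was most like TAGLN (0.36), TPM1 (0.27) and CALD1 (0.27) there, and ACTC1 alone NPPB (0.33), ANKRD1 (0.29) and TAGLN (0.27).

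Clusters of cells were formed without the members, their paralogues and the score genes. Of 9 clusters, cluster 4 (1631 cells), led by CALCR, FLI1 and VIP, held 1335 of the high cells (84.3%). Cluster 7 (825 cells), led by LINC02334 and NXPH1, held 137, and cluster 9 (163 cells), led by S100A10, S100A11 and PHLDA2, with ACTA2, ACTC1, TPM2 and TAGLN also among its 10 leading genes, held 92. The other 6 clusters held the remaining 20.

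In cluster 7 the members were at middle levels, with TAGLN at 2048 CPM, TPM1 at 2812 CPM and ACTA2 at 156 CPM, close to the ACTA2 level of cluster 4 (159.9 CPM). ACTC1, by contrast, was 39.2 CPM in cluster 7 and 379 CPM in cluster 4. The high cells of cluster 7 had 273 CPM of ACTA2 and 106 CPM of ACTC1, and those of cluster 4 had 156 and 428 CPM. Which of the actins led thus differed between high cells of different clusters. Cluster 7 was shallower, with a median of 21873 UMIs per cell against 48178 in cluster 4. The actin that led also changed with depth and score, and their part in the cluster difference was not tested.

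Cluster 9 stood apart, with a median of 9544 UMIs and 0.118% mitochondrial UMIs, against 5.16% over kept cells. Of the 9 clusters it had the highest level for 8 of the 10 members, among them TAGLN (5339.5 CPM), TPM2 (1084 CPM), ACTC1 (411 CPM) and ACTA2 (263 CPM). The exceptions were CALD1 (2519 CPM) and ACTN1 (265 CPM), which lay below cluster 4 (3959.8 and 609 CPM). Without all cells under 1% mitochondrial UMIs, 10 of 10 members stayed at least 2-fold higher in high cells, and the share over all genes was not determined for that choice. Levels were lowest in cluster 8, with ACTA2 at 2.72, CNN1 at 2.04, TAGLN at 32.3 and TPM1 at 199 CPM, and for ACTC1 (4.43 CPM) in cluster 6. Clusters 2 and 3, led by histone and mitotic genes, had TAGLN at 281 and 273 CPM, and cluster 1, the largest, 124 CPM.

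**Figure D5:**
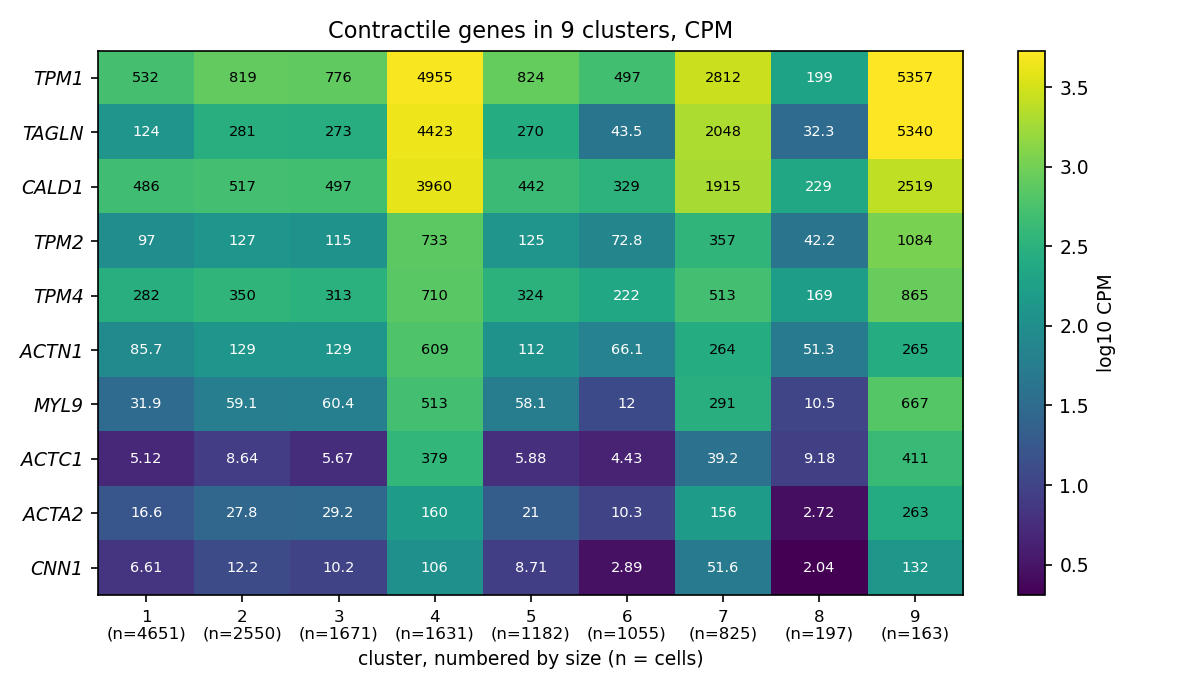
Level of each contractile gene (rows, CPM printed in each field, colour on a log10 scale) in 9 clusters numbered by size. Clusters 4, 7 and 9 hold the high values, and ACTC1 is 379 CPM in cluster 4 but 39.2 CPM in cluster 7.

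Other genes of the contractile machinery came from a list of 61, chosen with earlier results of these data known. Of these 31 were at least 2-fold higher by CPM in high cells and 1 was at least 2-fold lower, with a median ratio of 2.00, where the shares over all genes were 7.24% and 21.7%. The counts by role below are to be read against the same 7.24%, and differences between roles were not tested. Of 15 genes of adhesion and stress fibre ends 12 were higher, led by PDLIM1 (6.21-fold), CSRP1 (5.87-fold), TNS1 (5.58-fold) and TES (4.69-fold). Of 22 genes for filament ends, turnover and crosslinks 9 were higher, among them the filamin FLNC (17.7-fold, 74.1 against 4.19 CPM), SYNPO (5.75-fold) and the actin monomer binder TMSB4X, which reached 9838 CPM.

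The gene of the list that was 2-fold lower was MYLK, for the kinase of the myosin light chain, at 23.1 against 57.8 CPM, a ratio of 0.4004. The MYLK ratio was 0.387 after thinning and 0.369 (0.328 to 0.413) in cells of 20000 to 40000 UMIs. By UMIs per cell it was 1.01, where the median gene had 1.99. ROCK1 and ROCK2 were 1.09-fold and 1.40-fold higher by CPM. In cells of 20000 to 40000 UMIs ROCK1 was 0.885 times as high (0.842 to 0.929) and ROCK2 1.19 times. Of 10 transcription factors and cofactors 5 were higher, namely MYOCD, GATA6, FHL2, TEAD4 and WWTR1. MYOCD, the myocardin gene, was 28.3-fold higher at a low level (7.14 against 0.252 CPM) and was found in 6.94% of high cells, but its ratio was 15.6 after thinning and 8.93 at 20000 to 40000 UMIs, while SRF was 1.41-fold higher. Among high cells, 110 had a MYOCD UMI, and 0 of 10 members were 1.5-fold higher in these than in the 1474 without one, against 5.71% of 12602 genes. Cells with MYOCD were deeper, with a median of 65836.5 against 46021 UMIs. At 20000 to 40000 UMIs, where 9 high cells had a MYOCD UMI, ACTC1 was 2.85-fold higher (2.46 to 3.30). The median score there was 22.0 with and 13.1 without a MYOCD UMI, and the part of the score was not tested. ACTC1 was very uneven among high cells, and its interval takes no account of the spread between these 9 cells.

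Markers of muscle other than the members were low in the high cells. The lists left out the members, among them ACTA2, MYL9 and CNN1 of smooth muscle and ACTC1 of heart muscle. The counts of markers at least 2-fold higher cover only genes with at least 200 UMIs. They are again to be read against 7.24% of all genes. The share of all genes that reached 20 CPM was not determined, so counts at that level say only how many markers reached it. Of 6 smooth muscle markers none reached 20 CPM in high cells, and their summed level was 28.2 CPM against 10.8 CPM in other cells. DES had 5 UMIs and MYH11 71 UMIs there, while 2 of the 6 were at least 2-fold higher, MYOCD and ACTG2 (5.59-fold). Of 7 cardiac markers none reached 20 CPM either, with a summed level of 27.5 against 5.22 CPM, and MYH6 had 1 UMI and MYH7 10 UMIs in high cells. With at least 200 UMIs, 3 of the 7 were at least 2-fold higher, TNNC1 5.63-fold (1378 UMIs), TNNT2 21.6-fold (424 UMIs) and MYL7 13.0-fold (201 UMIs). NKX2-5, below that limit and so not counted, was 7.75-fold higher (4.25 to 14.8), with 40 UMIs in high and 16 in other cells. The ratio was 0.637 for TNNI1, and 0.620 for MYH6 and 0.307 for MYH7, which were also below the limit. Of 5 skeletal muscle markers, MYOD1, MYOG and MYF5 had no UMI in high cells, and the sum of 18.5 CPM was nearly all ACTA1. Of 8 forebrain progenitor markers 7 were at 20 CPM or more in high cells. Its summed level was 1257 CPM against 1891 CPM, with SOX2 at 117 against 412 CPM, LHX2 at 27.8 against 164 CPM and NES at 666 against 238 CPM. Pericyte and fibroblast markers summed to 223 against 62.7 CPM, with 4 of 5 at least 2-fold higher, among them COL1A1 (25.04-fold) and RGS5 (3.39-fold). Crest and mesenchyme markers summed to 87.5 against 19.3 CPM, with 3 of 8 at least 2-fold higher, among them COL1A2 (8.39-fold). Epithelial markers summed to 691 against 194 CPM, nearly all of it the keratins KRT8 and KRT18. The part of other cell types in the members' levels was not tested.

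Genes that overlap on the opposite strand were listed for ACTA2 (STAMBPL1, ACTA2-AS1 and FAS), ACTC1 (GJD2-DT), MYL9 (DLGAP4-AS1), TPM1 (TPM1-AS and 1 unnamed gene) and TAGLN (PCSK7) in GENCODE version 44. The sources used here give default settings of Cell Ranger and do not name the strand setting itself. Whether reads of such partners entered the counts was not tested.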

How the data were processed

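Single-cell RNA-seq of 1 library of hHAR123 cells (Chromium 3′ chemistry, capture target 20000 cells) was used. The authors deposited raw UMI counts per gene and barcode, made with Cell Ranger 7.0.1 at default settings on GRCh38 (filtered matrix). The version of their annotation is not given in the sources used here. The submitters' notes also list Seurat 4.4.0. The table held 14726 barcodes with a median of 17494 UMIs.

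Cells with 2000 to 10000 genes and a mitochondrial share below 0.1 were kept, as in the study. Levels are pooled CPM with exact Poisson intervals, ratios carry the exact conditional interval and shares the exact binomial (Clopper-Pearson) interval. UMIs are not independent cultures, so all intervals cover counting error only. Genes with at least 200 UMIs formed the background. For alternatives, cells were thinned without replacement to 5000 UMIs, which left out 28 cells, 3 of them high. Clusters came from 2000 variable genes, 30 principal components, 20 nearest neighbours weighted by shared neighbours, and Leiden clustering at resolution 0.5 (scanpy 1.11.5, leidenalg 0.10.2, Python 3.11.15, numpy 2.4.6, scipy 1.17.1). Scrublet marked 1 barcode, and was therefore taken as failed. Doublets stayed in, and an alternative left out the 1178 barcodes with the highest scores. Gene coordinates are those of GENCODE release 44 (GRCh38), and promoters come from the RefSeq table on GRCh38.p14.

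The members, lists, score and fold limits were chosen with earlier results of these data known. All members were named in full, together with their paralogues, the largest folds of each role list (up to 4, at least 2-fold) and the 10 genes most correlated with the summed members. SRF, ROCK1, ROCK2, SOX2, LHX2, NES and the markers above 2-fold were named after their values were seen. Some items of these lists are not reported here.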

Additional observations from a re-analysis of the deposited data

How the results depend on the processing

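No paired analysis was possible because there was 1 library. The 10 member ratios stayed above 1 in all 120 values from 12 alternatives, between 1.88 and 90.1, and 9 or 10 members were at least 2-fold higher and 0 were 2-fold lower in each. The exception was TPM4, under 2-fold with the score limit at 20, with ANXA1 and TFPI2 alone, and at 20000 to 40000 UMIs. By UMIs per cell 49.5% of all genes were at least 2-fold higher. For the other alternatives the share over all genes was not determined, so these counts have no background there. The limit at 20 also moved the ratio to 17.6 for ACTC1, 5.45 for TAGLN, 4.53 for MYL9, 3.99 for CNN1 and 2.75 for ACTA2. The high share was 14.8% with the limit at 2, 9.06% at 10, 5.31% at 20, 8.06% with ANXA1 and TFPI2 alone, 10.3% at 20000 to 40000 UMIs and 12.1% with no quality filter. For the muscle actin share, the TPM1 and TPM2 share and the ACTC1 share of its pair in high cells, the values were 6.55, 82.9 and 68.2% with the limit at 2; 7.26, 83.4 and 74.6% at 10; 8.42, 83.6 and 79.95% at 20; 6.80, 83.4 and 66.6% with cells thinned; 6.74, 83.3 and 66.5% as means of single-cell CPM; and 6.01, 84.1 and 49.3% at 20000 to 40000 UMIs. With ANXA1 and TFPI2 alone the muscle actin share was 7.13% and the ACTC1 share 79.3%. With no quality filter the first 2 shares were 6.72 and 82.95%, and without the highest Scrublet scores 6.99 and 83.3%. In other cells these 2 shares were 1.08 and 61.6% with the limit at 2, and 2.25 and 71.2% with the limit at 20. They were 2.06 and 69.3% there with ANXA1 and TFPI2 alone. Within the high cells, upper against lower, ACTA2 turned to 1.13 by UMIs per cell and 1.15 at 20000 to 40000 UMIs, and CNN1 to 0.875 when both the score and the levels came from thinned counts (1.08 with the levels alone thinned). With ANXA1 and TFPI2 alone, TPM4 turned to 0.951, TAGLN to 0.871, CNN1 to 0.766, CALD1 to 0.947 and ACTN1 to 0.940. The cause was not tested. The alternative without cells of low mitochondrial share was chosen after seeing the data.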

Other observations

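MYOCD encodes myocardin, a cofactor of SRF that drives smooth and cardiac muscle genes. High cells with and without a MYOCD UMI were compared after the values were seen. ACTA2 was 79.4 CPM in the 110 cells with one against 172 CPM, a ratio of 0.462 (0.423 to 0.502), CNN1 75.3 against 114 CPM, a ratio of 0.658, and TPM1 4118 against 5113 CPM, a ratio of 0.805. TPM2 was 1.16 times and MYL9 1.04 times as high. The cells with MYOCD were deeper (median 65836.5 UMIs) and had a median score of 25.9. At 20000 to 40000 UMIs, where 9 cells had a MYOCD UMI and 431 had none, the ACTA2 ratio was 0.566 (0.407 to 0.767), while that of ACTC1 went from 0.914 over all high cells to 2.85 (2.46 to 3.30). These 9 cells had a median score of 22.0, against 13.1 in the 431, and ACTC1 was higher at higher scores. The intervals take no account of the spread between these 9 cells, and ACTC1 was very uneven among high cells.

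From the shallowest to the deepest quartile of high cells, CNN1 went from 148 to 95.9 CPM and TAGLN from 5545 to 4298 CPM, while TPM2 went from 683 to 828 CPM and ACTN1 from 538 to 682 CPM.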
